A study of Mus musculus with 7 samples.

Results

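The 8 genes described here encode 6 suppressors of cytokine signalling (Socs1, Socs2, Socs3, Socs5, Socs6 and Cish) and 2 serine/threonine kinases of the PIM family (Pim1 and Pim2). They were chosen by name: every non-control probe was taken whose gene name in the array files was 1 of these 8. This gave 14 of 55681 probes, of which 11 passed the detection filter, and all 8 genes were among the 16431 of 27386 named genes that were tested. Total RNA from mouse lymph node CD8 T lymphocytes had been hybridised to 1-colour arrays, 4 labelled WT and 3 labelled Lck-/-, which the series states to be biological replicates. Cells of all 7 samples were OT-1het, carrying a T cell receptor transgene for the ovalbumin peptide SIINFEKL, and Rag-/-, and all had been activated in culture with 100 nM of that peptide for 24 h. The samples labelled Lck-/- also lacked the endogenous gene for the kinase Lck. They came from mice in which a knocked-in, doxycycline-dependent Lck had been turned off by 7 days without dietary doxycycline. What drives the knocked-in Lck, the age of the mice and any doxycycline feeding of the WT mice are not given in the sources used here. An effect of feeding or of the inducible construct and an effect of Lck loss therefore cannot be told apart.

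Cytokine receptors signal through JAK kinases, which phosphorylate STAT transcription factors, and STATs in turn induce SOCS genes, whose proteins act back on the pathway. A SOCS protein binds phosphorylated receptors or kinases through an SH2 domain and, through its SOCS box, brings them to an elongin and cullin-5 ubiquitin ligase. SOCS1 and SOCS3 can also inhibit JAK kinases directly. PIM kinases are likewise induced by STATs, need no activating phosphorylation, and favour survival and protein synthesis in lymphocytes stimulated by cytokines. In CD8 T cells the main cytokines after antigen encounter include interleukin 2, which acts through STAT5, and the interferons.

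Values are log2 of a probe's processed intensity relative to the 75th percentile of its array, so 0 stands for that percentile. They compare arrays for 1 probe and cannot rank different genes, because probes differ in brightness for the same amount of RNA. The number of arrays limits the precision. Each array had between 46.6% and 61.1% of its non-control spots well above background, 0 saturated spots, and a correlation of 0.98 to 0.99 across genes with any other array. Of 10 CD8 T cell markers, 9 were well above background on all 7 arrays. Of 7 B cell markers 1, Cd79b, was so on all 7 arrays and 3 on none, among them Ms4a1 and Ebf1. The Lck probe (A_55_P2155504, mm9, chromosome 4, 129225614 to 129225673) gave 7.44, 7.67, 7.36 and 6.04 for WT 1 to WT 4 and 8.02, 6.21 and 6.17 for Lck-/- 1 to Lck-/- 3, all as labelled. On this probe the arrays labelled WT 4 and Lck-/- 1 therefore went against their labels. The probe was well above background on all 7 arrays, those labelled Lck-/- included. Lck-/- minus WT was -0.32 for it (SE 0.55). Which stretch of Lck is deleted is not given, and a probe outside that stretch would be no check of the labels. All differences below follow the labels, and those of the members are also given without these 2 arrays, called the doubted arrays.

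Among the 8 genes, the inhibitors Socs1, Socs3 and Cish had the largest positive differences between the arrays labelled Lck-/- and WT. On the linear scale these were 1.65-fold, 1.77-fold and 1.52-fold. The limma fit over all genes called 0 of 16431 genes at an adjusted p under 0.05 (0%), and therefore none of the 8. At an unadjusted p under 0.05, 3 of the 8 were higher and 0 lower, where 5.05% of all genes tested were higher and 7.10% differed in either direction. The 3 Lck-/- arrays all lay above the 4 WT arrays for 2 of the 8, Socs1 and Socs3, as they did for 5.34% of all genes, and 7.29% did not overlap in either direction. The median difference of the 8 was 0.27 on the log2 scale, with 5 positive and 3 negative, against a median of 0.05 over all genes tested. The higher share of the genes at an unadjusted p under 0.05, 71.2% here, depended on the scaling: it was 57.05% with quantile normalization, 56.9% with normexp background correction and quantile normalization together, 49.5% with the authors' deposited values and 23.0% with each array's median as reference.

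**Figure D1:**
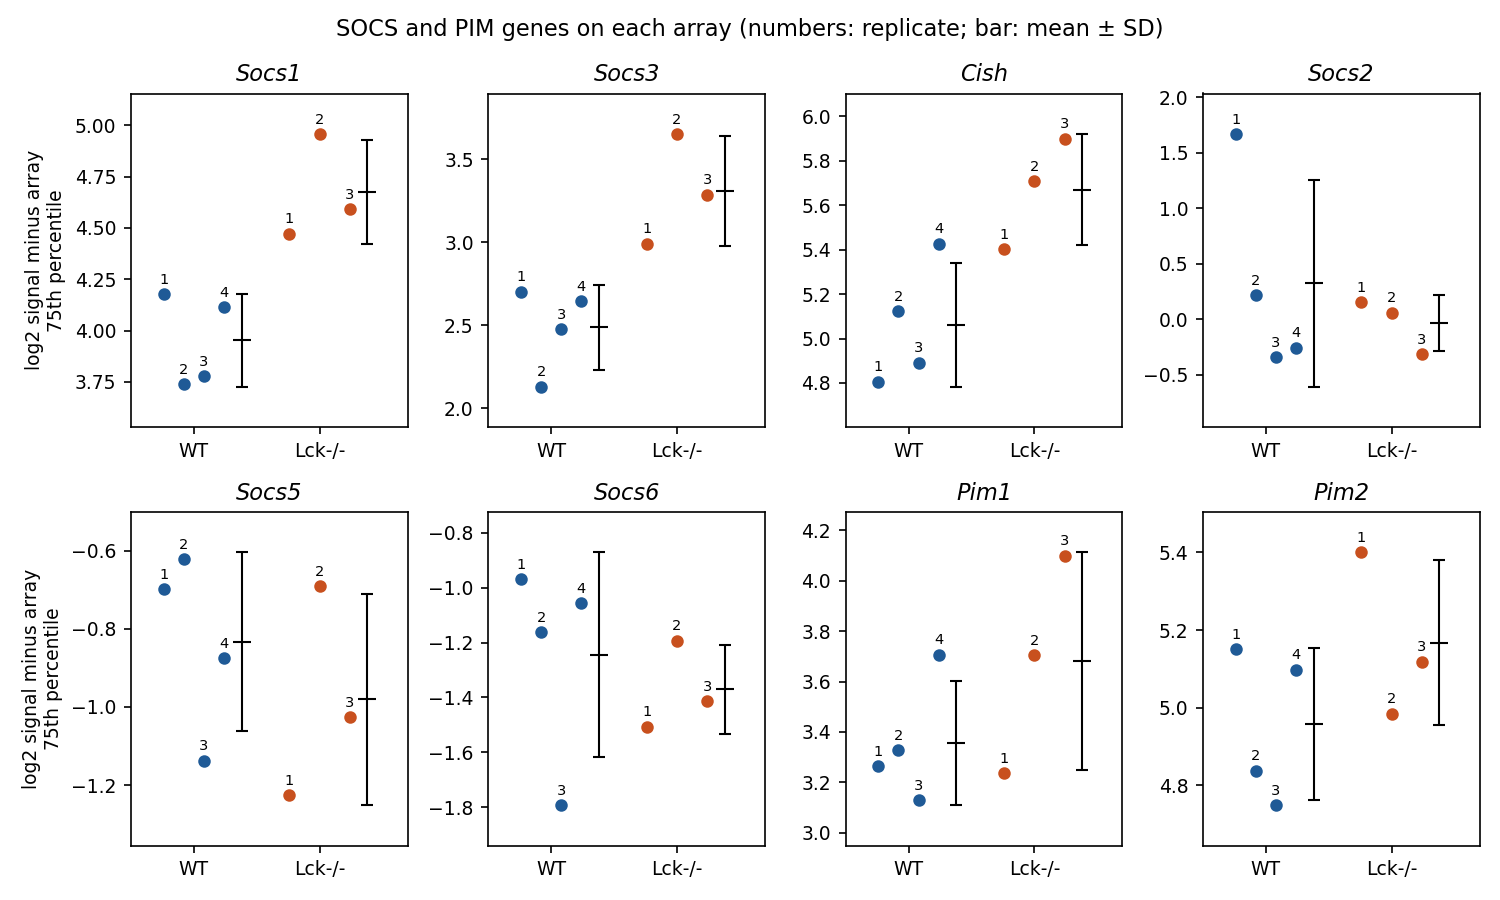
Level of each of the 8 genes on each array (y axis, log2 relative to the array's 75th percentile), with 4 WT and 3 Lck-/- arrays; points are single arrays, their numbers are the replicates, and the bars give the mean ± SD of a group. Each panel has its own scale. The 3 Lck-/- points lie above the 4 WT points for Socs1 and Socs3, and WT 1 lies apart at 1.67 for Socs2.

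Promoter sequences of the 3 genes that led the difference are shown because SOCS genes are textbook STAT targets. RefSeq (GRCm38.p6) windows of 300 bases, from 250 before to 50 after the annotated start, were at hand for 5 of the 8 genes. Those of Socs2, Socs5 and Socs6, the members with negative differences, were not, so motifs cannot be compared between higher and lower members. Capitals mark matches to the STAT motif TTCNNNGAA in Socs3 and Cish and to the interferon response motif in Socs1, GAAA and GAAA with any 2 bases between, each written 5' to 3' in the direction of transcription.
Socs1 chr16:10785487-10785786 (minus strand): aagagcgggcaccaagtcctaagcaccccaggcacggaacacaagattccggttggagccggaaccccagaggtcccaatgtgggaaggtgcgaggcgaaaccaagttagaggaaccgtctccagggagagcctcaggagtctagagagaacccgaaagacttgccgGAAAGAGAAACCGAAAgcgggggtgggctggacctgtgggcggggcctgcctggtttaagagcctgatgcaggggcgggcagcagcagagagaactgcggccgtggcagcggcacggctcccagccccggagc
Socs3 chr11:117969317-117969616 (minus strand): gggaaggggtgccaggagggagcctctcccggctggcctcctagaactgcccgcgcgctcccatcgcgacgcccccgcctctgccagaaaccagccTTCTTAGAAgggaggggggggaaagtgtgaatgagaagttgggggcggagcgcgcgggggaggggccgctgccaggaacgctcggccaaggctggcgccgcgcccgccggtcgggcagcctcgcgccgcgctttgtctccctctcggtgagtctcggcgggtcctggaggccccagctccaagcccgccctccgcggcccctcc
Cish chr9:107296409-107296708 (plus strand): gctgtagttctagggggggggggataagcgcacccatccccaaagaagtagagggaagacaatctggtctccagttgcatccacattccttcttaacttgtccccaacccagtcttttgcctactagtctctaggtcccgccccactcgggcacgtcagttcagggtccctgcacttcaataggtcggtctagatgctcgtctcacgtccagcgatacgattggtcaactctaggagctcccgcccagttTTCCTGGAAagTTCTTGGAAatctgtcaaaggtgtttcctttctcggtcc
The TTCNNNGAA motif reads the same on both strands, and the interferon motif was searched on both. Cish had 2 STAT motif matches, TTCCTGGAA at bases 1 to 9 after the start and TTCTTGGAA at bases 12 to 20. Socs3 had 1, TTCTTAGAA, at -154 to -146 from it. Socs1 had 2 overlapping interferon motif matches, GAAAGAGAAA at -83 to -74 and GAAACCGAAA at -77 to -68. The STAT motif was present in 8.30% of 32851 RefSeq windows of this length, and the interferon motif in 3.44%. A wider STAT motif, TTC and GAA with any 4 bases between, present in 6.95% of windows, had no match in these 5 genes. The 2 windows of Pim1 and the window of Pim2 held no match to any of these letters. A match is a description of the letters in the window and was not tested for binding.

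**Figure D2:**
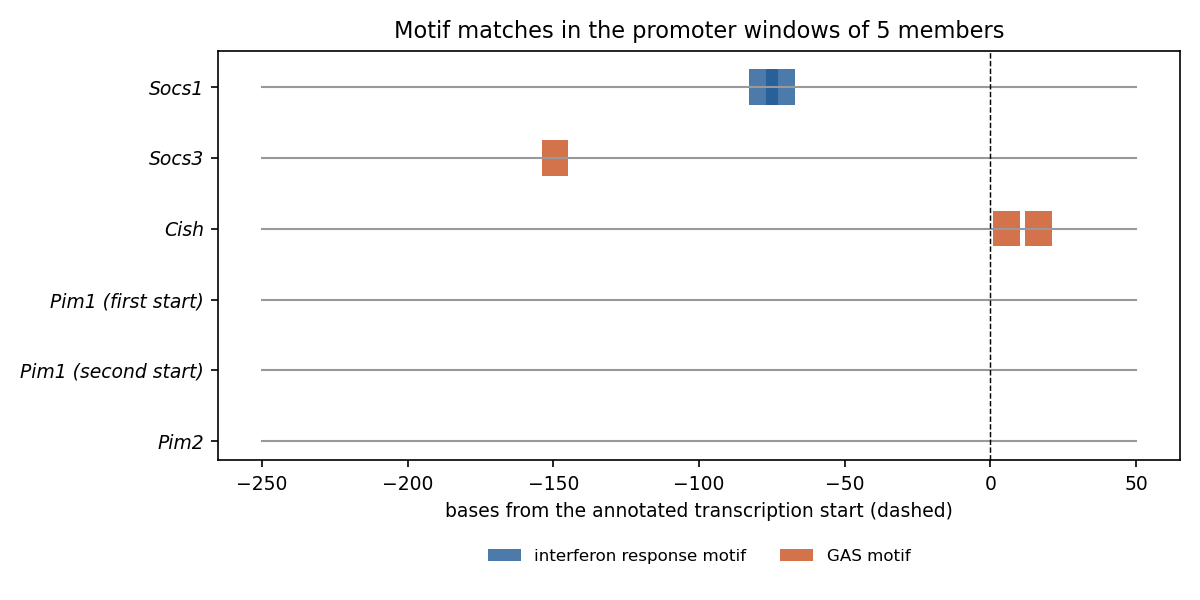
Positions of motif matches in the RefSeq promoter windows of 5 genes (x axis, bases from the annotated start, dashed line), with the STAT (GAS) motif TTCNNNGAA in orange and the interferon response motif in blue. Cish holds 2 and Socs3 holds 1 of the first, Socs1 holds 2 overlapping matches of the second, and Pim1 and Pim2 hold none.

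Socs1, whose protein inhibits JAK kinases downstream of interferon and common gamma chain receptors, gave 4.18, 3.74, 3.78 and 4.11 in array order for WT. The values for Lck-/- were 4.47, 4.96 and 4.59 (probe A_51_P279606, mm9, chromosome 16, 10783951 to 10784010, minus strand). All 3 Lck-/- arrays lay above all 4 WT arrays, the nearest 2 being WT 1 and Lck-/- 1. The means were 3.95 ± 0.23 (SD, n = 4) and 4.67 ± 0.25 (SD, n = 3). Lck-/- minus WT was 0.72 (SE 0.18, 95% interval 0.29 to 1.15). Its unadjusted limma p of 0.00467 was the 115th smallest of 16431 genes, and the limma adjusted p was 0.633. Without the arrays labelled WT 4 and Lck-/- 1 the difference was 0.88 (limma adjusted p = 0.211).

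Socs3, which restrains signalling of the interleukin 6 receptor family through gp130, behaved much like Socs1 from array to array. It read 2.70, 2.13, 2.48 and 2.64 for WT and 2.99, 3.65 and 3.29 for Lck-/- (probe A_51_P474459, mm9, chromosome 11, 117827480 to 117827539, minus strand). The groups did not overlap, and the lowest WT array was WT 2 and the highest Lck-/- array was Lck-/- 2, as for Socs1. The means were 2.49 ± 0.26 (SD, n = 4) and 3.31 ± 0.33 (SD, n = 3). Lck-/- minus WT was 0.82 (SE 0.21, 95% interval 0.33 to 1.31, limma adjusted p = 0.633). Its unadjusted p was 0.00471, next in rank to that of Socs1. Without both doubted arrays the difference was 1.03 (limma adjusted p = 0.185).

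Cish encodes CIS, an inhibitor that is induced by STAT5 and occupies STAT5 docking sites on receptors, and that also dampens T cell receptor signalling in mouse CD8 T cells. It read 4.81, 5.12, 4.89 and 5.43 for WT and 5.40, 5.71 and 5.90 for Lck-/- (probe A_51_P470715, mm9, chromosome 9, 107204196 to 107204255, plus strand). The groups overlapped by 1 pair only, WT 4 over Lck-/- 1, which are the 2 doubted arrays. The means were 5.06 ± 0.28 (SD, n = 4) and 5.67 ± 0.25 (SD, n = 3). Lck-/- minus WT was 0.61 (SE 0.20, 95% interval 0.15 to 1.07). The unadjusted limma p was 0.0163 and the adjusted p 0.635. Without the array labelled Lck-/- 3 the difference was 0.49 (limma adjusted p = 0.998) and no longer had an unadjusted p under 0.05, and without both doubted arrays it was 0.86 (limma adjusted p = 0.178).

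Socs2, best known as the brake on growth hormone signalling, was set apart by 1 array. Its probe A_51_P107362 (mm9, chromosome 10, 94875066 to 94875125, minus strand) read 1.67, 0.22, -0.34 and -0.25 for WT, and 0.16, 0.06 and -0.31 for Lck-/-. WT 1 stood above the other 6 arrays, which lay together whatever their label. The means were 0.32 ± 0.93 (SD, n = 4) and -0.03 ± 0.25 (SD, n = 3). Lck-/- minus WT was -0.36 (SE 0.46, 95% interval -1.43 to 0.72, limma adjusted p = 0.93), and 0.09 without WT 1. This probe was printed 10 times on each array, and the 10 spots of WT 1 ran from 1.58 to 1.73, with an SD between spots of 0.04 to 0.09 on every array. The high value of WT 1 was therefore no matter of a single spot. A pair of other Socs2 probes showed the same array apart, and their sequences are given because they read the same transcript at other places (mm9, both on the minus strand).
A_55_P1992834 chr10:94875187-94875246: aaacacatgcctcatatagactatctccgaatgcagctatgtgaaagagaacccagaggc
A_55_P1992838 chr10:94875468-94875527: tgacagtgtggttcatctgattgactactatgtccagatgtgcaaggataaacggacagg
On WT 1 the probe A_55_P1992834 read 1.30, against -0.96 to -0.17 on the other 6 arrays, and A_55_P1992838 read 1.18, against -0.92 to -0.14. Their differences between the groups were -0.38 and -0.44. The remaining Socs2 probe, A_55_P2072586, was well above background on 0 of 7 arrays and was not tested. The within-group SD of Socs2, 0.74, was larger than that of 92.9% of genes, while the other 7 members had 0.20 to 0.33, around the median of 0.25 over 15692 genes.

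Socs5 and Socs6 had small negative differences with intervals on both sides of 0. Socs5, described as a regulator of interleukin 4 and epidermal growth factor receptor signalling, read -0.70, -0.62, -1.14 and -0.87 for WT and -1.23, -0.69 and -1.03 for Lck-/- (probe A_52_P281033, mm9, chromosome 17, 87536500 to 87536559, plus strand). The groups overlapped, with a difference of -0.15 (SE 0.19, 95% interval -0.59 to 0.29, limma adjusted p = 0.93). Socs6, which binds receptor tyrosine kinases such as KIT and has been reported to bind Lck, read -0.97, -1.16, -1.79 and -1.06 for WT and -1.51, -1.19 and -1.41 for Lck-/- (probe A_55_P1969251, mm9, chromosome 18, 89038580 to 89038639, minus strand). Here too the groups overlapped, with a difference of -0.13 (SE 0.22, 95% interval -0.63 to 0.38, limma adjusted p = 0.955). Of the other 3 Socs6 probes, A_52_P135421 differed by 0.14, and 2 were well above background on 1 and 0 arrays and were not tested. The sign of the Socs6 difference therefore depended on the probe.

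The differences of the kinase genes, 0.32 for Pim1 and 0.21 for Pim2, had intervals that included 0. Pim1 read 3.26, 3.33, 3.13 and 3.71 for WT and 3.24, 3.70 and 4.10 for Lck-/- (probe A_52_P530291, mm9, chromosome 17, 29630740 to 29630799, plus strand). WT 4 was the highest WT array and Lck-/- 1 the lowest Lck-/- array, and the groups overlapped. The Pim1 difference was 0.32 (SE 0.23, 95% interval -0.22 to 0.87, limma adjusted p = 0.838). Without both doubted arrays it was 0.66 (limma adjusted p = 0.298), and the groups no longer overlapped. On those 5 arrays limma called 56 genes (0.341%) at an adjusted p under 0.05 and none of the 8. There Socs1, Socs3, Cish and Pim1, 4 of the 8, were higher without overlap, where 17.2% of all genes were so and 27.1% did not overlap in either direction. The same 4 were higher at an unadjusted p under 0.05, against 6.06% of all genes, and 10.5% in either direction. Pim2, which sustains survival and cap-dependent translation, read 5.15, 4.84, 4.75 and 5.10 for WT and 5.40, 4.98 and 5.12 for Lck-/- (probe A_52_P608255, mm9, chromosome X, 7459678 to 7459737, plus strand). Its groups overlapped, with a difference of 0.21 (SE 0.17, 95% interval -0.18 to 0.60, limma adjusted p = 0.855). Without the doubted arrays the differences of the members not yet given were 0.14 for Pim2, -0.64 for Socs2, -0.04 for Socs5 and 0.0044 for Socs6.

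**Figure D3:**
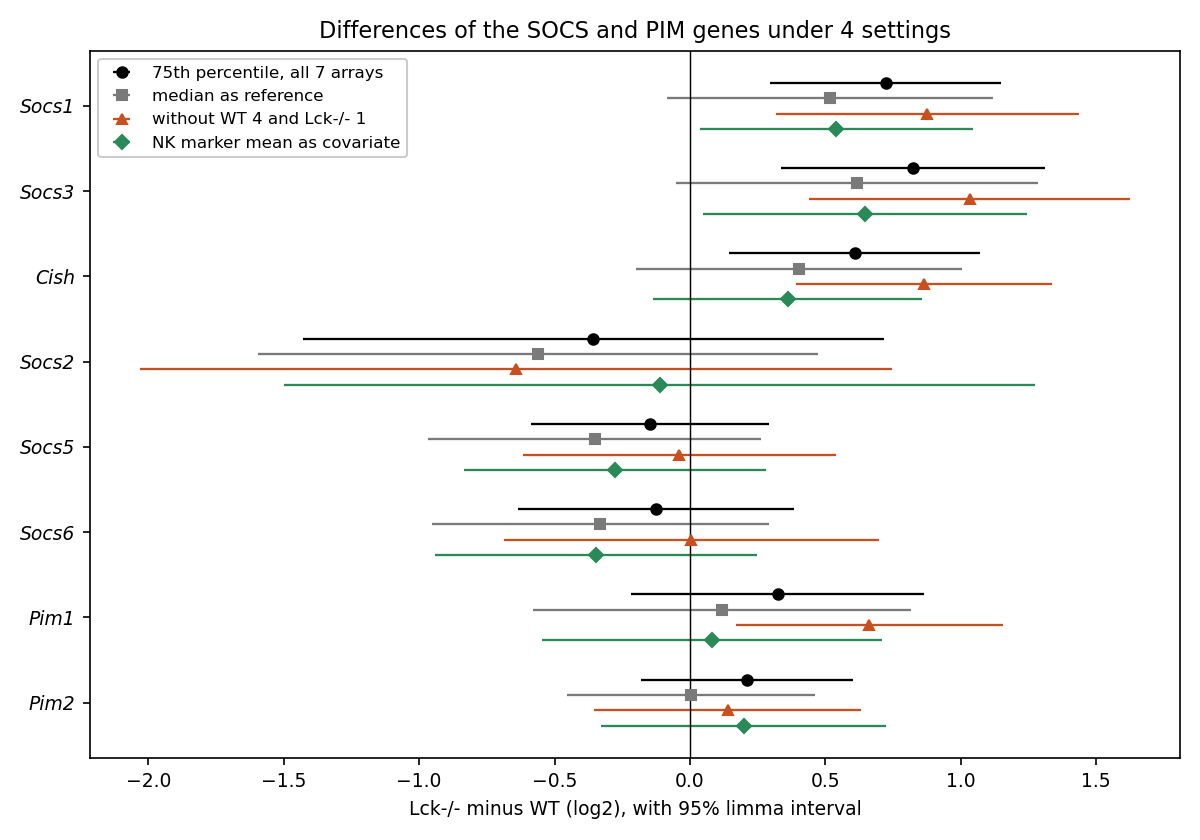
Difference of each gene, Lck-/- minus WT (x axis, log2), with its 95% limma interval, in the fit of all 7 arrays and under 3 alternatives. The intervals of Socs1 and Socs3 lie above 0 in all but the fit with each array's median as reference, that of Cish does so with all 7 arrays and without WT 4 and Lck-/- 1, and that of Socs2 is the widest in each fit.

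With each array's median as reference, the median difference of all genes moved by -0.20, to -0.15, and the differences of Socs1, Socs3 and Cish were 0.52, 0.62 and 0.40. Relative to the median of all genes they were 0.67, 0.77 and 0.56 under either reference. A change of reference moves every gene with a value on each array by the same amount. This agreement therefore follows from the arithmetic and is no support for the differences. Under the median reference 0 of the 8 members passed an unadjusted p of 0.05 in either direction. Over all genes 1007 of 16431 did, 232 of them higher (1.41%) and 775 lower. Of the 8, 0 were free of overlap in either direction. Over all genes 1.20% were higher without overlap, and the share lower without overlap was not computed. Socs1, Socs3, Cish, Pim1, Pim2 and Socs5 kept their sign in all 18 alternatives tried, but not all of these could change it. Other detection filters and the mean of a gene's probes left the differences of these members as they were. The replicate block repeated their differences from another alternative. Pim2 kept its sign only nominally with the median as reference, at 0.0041 (SE 0.20).

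The related genes that the rule did not take differed little. Socs4 differed by -0.01 (SE 0.14), Socs7 by -0.15 (SE 0.14) and the third PIM kinase gene, Pim3, by 0.11 (SE 0.19), with overlapping groups in each. Of 6 genes for partners of the SOCS box, 4 had positive differences and 0 passed an unadjusted p of 0.05. The elongin genes Elob and Eloc differed by 0.14 (SE 0.13) and 0.08 (SE 0.13).

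Across the 7 arrays the levels of Socs1 and Socs3 ran closely together, with a Pearson correlation of 0.98, given as a description with no p. Candidates were the 11048 genes well above background and with a value on all 7 arrays, without predicted genes and those known by an ID only. Of these, 2 were more like Socs1 than Socs3 was, and 3 were more like Socs3 than Socs1 was. Those nearest were Scaper and Ehbp1l1 for Socs1 (0.98 each) and Unc93b1 and Tnp2 for Socs3 (0.99 each). Cish ran with Pim1 at 0.87 and with Socs1 at 0.76. The genes nearest to Cish were Adgre5 (0.99) and Nagk (0.98), and the gene named as nearest to Pim1 was Slc15a3 (0.98). Pim2 was nearest to Lipe (0.98) and Trim3 (0.97), Socs2 to Sec11c (0.99) and Tmem29 (0.98), Socs5 to Tmem19 (0.999) and Cox19 (0.996) and Socs6 to Polr3k and Exosc6 (0.99 each). With 7 arrays and 11048 candidates high correlations are common: 98 genes exceeded 0.9 with Socs1 and 408 with Socs6. These correlations share the arrays, their scaling and any difference between the groups.

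**Figure D4:**
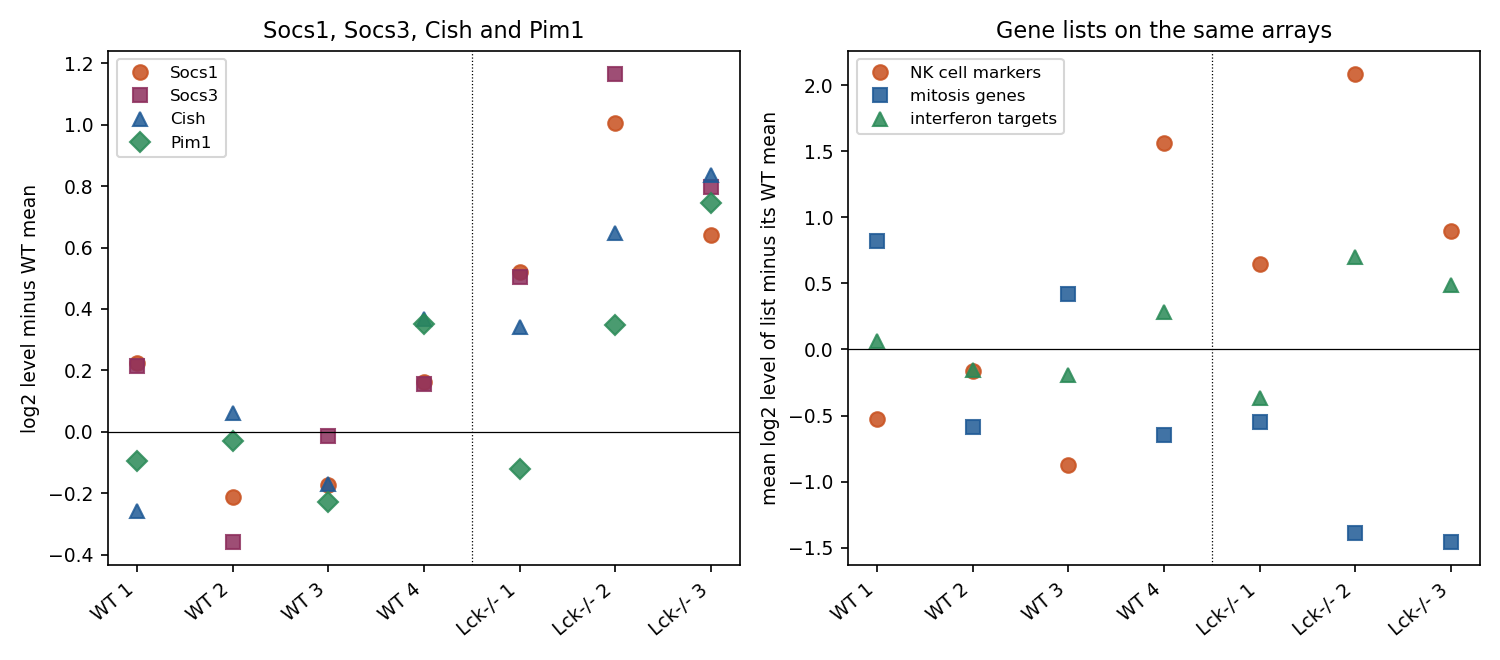
Left, level of Socs1, Socs3, Cish and Pim1 on each array minus the mean of the 4 WT arrays (log2); right, the mean level of 3 gene lists drawn the same way. Socs1 and Socs3 lie close on most arrays, WT 4 has the highest WT values of Cish and Pim1 (5.43 and 3.71), and the NK markers are high on WT 4 and Lck-/- 2.

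Genes of the pathway around the members showed the following, with 0 of the genes of any list called at an adjusted p under 0.05 and the median over all genes at 0.05. At an unadjusted limma p under 0.05, 5.05% of all genes were higher, and 336 of 16431 were lower. The move of -0.20 with each array's median as reference holds for these lists too, so that a list median between 0 and 0.20 turns negative there. Cytokine receptor genes had 14 positive and 4 negative differences among 18, with a median of 0.41, and 7 were higher at an unadjusted p under 0.05. Their brightest, Il2ra and Il12rb1, which encode subunits of the interleukin 2 and interleukin 12 receptors, differed by -0.33 (SE 0.17) and 0.36 (SE 0.22). Of 15 cytokine ligand genes 9 were tested, with 7 positive and a median of 0.67. Interleukin 2 (Il2) itself averaged 3.96 ± 0.76 in WT (SD, n = 4) and 2.92 ± 0.62 in Lck-/- (SD, n = 3). Its difference was -1.04 (SE 0.45, limma adjusted p = 0.697). Interferon gamma (Ifng) differed by 0.56 (SE 0.59).

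The 4 JAK genes had a median difference of 0.18 with 0 at an unadjusted p under 0.05, and Jak1 and Jak2 differed by 0.09 (SE 0.18) and -0.34 (SE 0.15). The 7 STAT genes had a median of 0.11 with 1 higher, and Stat3 and Stat4 differed by 0.30 (SE 0.18) and -0.23 (SE 0.16). Of 11 other brakes on the pathway, among them the phosphatase genes Ptpn6 and Ptprc at 0.02 (SE 0.16) and 0.09 (SE 0.17), 5 were positive and 1 was higher at that p.

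Targets of STATs and interferons outside the SOCS and PIM families had differences of both signs. Of 13 other STAT5 targets, 10 were positive and 3 were higher at an unadjusted p under 0.05, with a median of 0.22. The granzyme gene Gzmb differed by 1.86 (SE 0.55, limma adjusted p = 0.633) and the cyclin gene Ccnd2 by 0.04 (SE 0.20). Of 16 interferon targets, 12 were positive, 0 had such a p, and the median was 0.21, with Igtp, an interferon-induced GTPase, at 0.23 (SE 0.16) and the transcription factor Irf1 at 0.20 (SE 0.17). Of 10 STAT3 targets 8 were tested, with 3 positive, 1 higher and 1 lower at that p and a median of -0.14. Bcl3, a regulator of NF-kappaB, differed by 0.58 (SE 0.17) and the transcription factor Batf by -0.27 (SE 0.16). Of 11 PIM substrates and partners, 6 were positive and 1 was higher at that p, with a median of 0.04, and the ribosomal protein gene Rps6 and the translation repressor gene Eif4ebp1 differed by 0.17 (SE 0.14) and 0.04 (SE 0.17).

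**Figure D5:**
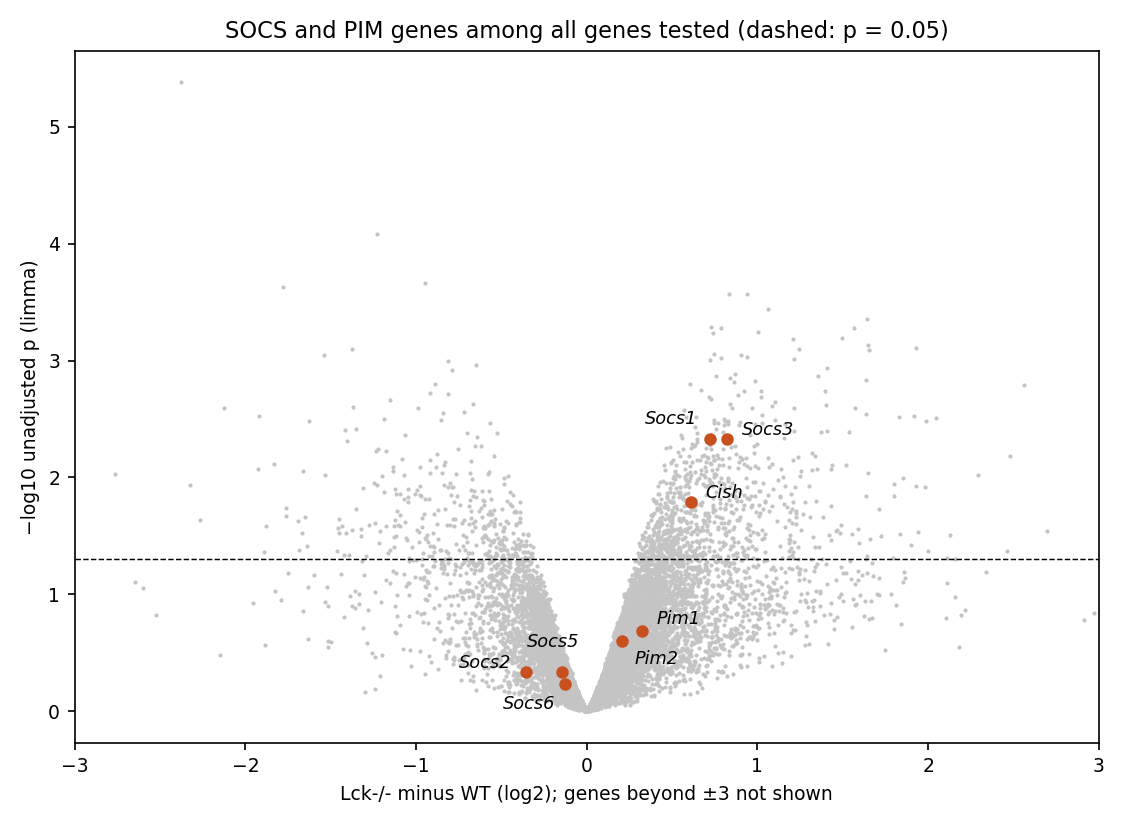
Unadjusted limma p as its -log10 (y axis, dashed line at 0.05) against Lck-/- minus WT (x axis, log2, genes beyond ±3 not drawn) for the genes tested (grey) and the 8 members (orange). Socs1, Socs3 and Cish lie above the line at 0.72, 0.82 and 0.61, with many grey genes around them, and the other 5 lie below it.

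Other signals moved with the groups and across the same arrays, and their part in the members' differences was not tested beyond the values given. In whole samples, fewer cells of a type and less RNA per cell cannot be told apart. All 10 tested of 11 NK cell markers had positive differences (median 1.06, 1 at an unadjusted p under 0.05), and 5 of the 11 were well above background on all 7 arrays and 1, Khdc1a, on none. Their summed linear level, over 9 genes and in multiples of each array's 75th percentile, ran from 2.91 to 10.9 on the WT arrays and from 7.12 to 18.6 on the Lck-/- arrays. The 10.9 was that of WT 4, a doubted array, while WT 1, WT 2 and WT 3 gave 3.15, 3.43 and 2.91. Several of the NK markers, such as Eomes, Gzma and Klrk1, are also expressed by activated CD8 T cells. With the mean of the NK markers as a covariate, the differences were 0.54 for Socs1, 0.65 for Socs3, 0.36 for Cish and 0.08 for Pim1 (limma adjusted p = 0.954 for the first 3). Socs1 and Socs3, 2 of the 8, then had an unadjusted p under 0.05, as did 4.25% of all genes in either direction.

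Genes of mitosis had differences of the other sign. All 15 tested of 16 had negative differences (median -1.12), 12 of them at an unadjusted p under 0.05. Over all genes, 336 of 16431 were lower at that p. The brightest, the proliferation marker gene Mki67 and the survivin gene Birc5, were at -1.45 (SE 0.51) and -0.89 (SE 0.37). The summed level ran from 141 to 391 on the WT arrays and from 84.5 to 151 on the Lck-/- arrays. Among other cell types, the median differences were 0.17 for 10 CD8 T cell markers (1 higher at that p), 0.09 for 3 CD4 T cell markers, 0.51 for the 3 tested of 7 B cell markers, 0.36 for the 6 tested of 7 macrophage and monocyte markers (2 higher), 0.44 for the 6 tested of 7 dendritic cell markers and 0.24 for the 3 tested of 6 stromal markers.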

How the data were processed

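The 7 arrays, grouped and numbered by their sample titles, were read from the scanner files. Per the file headers, the deposited spot intensity was made with Agilent Feature Extraction 10.7.3.1, which had subtracted background, removed spatial trends and put surrogate values in for dim spots. A deposited table of the authors' own log2 values, of unstated normalization, was used as an alternative only. The submitters' processing notes list limma, without saying for what.

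Processed intensities were taken to log2, and each array's 75th percentile over non-control spots was subtracted. Outlier spots were dropped and the spots of a probe averaged. A probe was tested if well above background on at least 3 of 7 arrays, and a gene was represented by its brightest passing probe, which mattered for 4276 genes. Gene names of non-members were updated through RefSeq (GRCm38.p6), 27224 probes by accession, 3578 by symbol and 565 by synonym, while 5357 kept the name in the files and 18943 had no gene name. Probe coordinates are on mm9, and the exons they fall in were not analysed here. The groups were compared by limma 3.58.1, run in R 4.3.3, with a two-sided moderated test (lmFit, eBayes) adjusted by Benjamini-Hochberg over all genes at a threshold of 0.05, and the procedure was tested on simulated data. Intervals cover the spread between these arrays.

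The members and the 19 gene lists were chosen with earlier results of these data known. From each pathway list the text names any gene past the threshold and otherwise the 2 brightest tested genes, gives cell type markers as counts and medians, and names for each member the 2 genes with the most similar pattern. A few genes under these rules are not reported here. Alternatives changed the scaling, background correction, detection filter, probe choice, block, array weights, marker covariate and arrays included. Title numbers were not taken to pair the arrays, since they are not stated to do so. Same-numbered arrays deviated together at correlations of 0.09, 0.05 and -0.03 across genes. Values for arrays of unlike number are not given beside these, so they cannot decide whether the arrays were paired. The file names number the Lck-/- arrays differently (1, 3 and 4), and a pairing by those numbers was not tested. All 7 arrays lay on 1 slide, so no slide effect could divide the groups.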

Additional observations from a re-analysis of the deposited data

Results flagged for a closer look

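Of 48 genes checked for it, 3 had 1 WT array far from the other 3 by Dixon's criterion at the 95% level, the gap to the nearest array over the group's range. Chance does this in about 1 in 20 groups, and 3 of 48 is near that rate. None of the 3 is a member. The granzyme gene Gzmb, a STAT5 target, read 4.48 on the array labelled WT 2 against 6.54 to 6.86 on the other 3, a gap of 0.865 of the range. The coreceptor gene Cd4 read 5.47 on the array labelled WT 3 against 1.69 to 2.05 on the other 3, a gap of 0.903 of the range. The granzyme gene Gzma, on the NK marker list, read 2.21 on the array labelled WT 4 against -0.03 to 0.25 on the other 3, a gap of 0.873 of the range.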

How the results depend on the processing

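No member was called at an adjusted p under 0.05 under any of the 18 alternatives. The lowest adjusted p over them was 0.211 for Socs1, 0.185 for Socs3 and 0.178 for Cish, and the highest was 0.998 for each. Over all genes the count called was 0 except without WT 4 and Lck-/- 1, where it was 56, and without single arrays, where it ran from 0 to 2, the 2 without WT 1. Of the 8 members, 0 had an unadjusted p under 0.05 and 0 were free of overlap with the median as reference. Over all genes 1.41% were higher and 775 of 16431 lower at that p there, and 1.20% were higher without overlap. Without WT 4 and Lck-/- 1, 4 were free of overlap (over all genes 17.2%, higher). Differences ran over the fits without single arrays from 0.58 to 0.82 for Socs1, 0.65 to 0.98 for Socs3, 0.49 to 0.74 for Cish, 0.11 to 0.55 for Pim1, 0.09 (without Lck-/- 1) to 0.30 (without Lck-/- 2) for Pim2, -0.29 (without Lck-/- 2) to -0.02 (without Lck-/- 1) for Socs5, -0.31 (without WT 3) to -0.03 (without WT 1) for Socs6 and -0.58 to 0.092 for Socs2. Without WT 3 the Lck-/- values of Socs6 all lay below those of WT (limma adjusted p = 0.746). In that fit 6.70% of all genes were higher without overlap, and the share lower without overlap was not computed. Socs2 changed sign without WT 1 (0.092). Socs6 changed sign with the mean of its probes (0.0064) and without WT 4 and Lck-/- 1 (0.0044), and the cause of the latter was not tested. With the title number as a replicate block, 0 genes and 0 members were called. The genes at an unadjusted limma p under 0.05 rose in number from 1166 to 1679. The differences were then 0.78 for Socs1, 0.87 for Socs3 and 0.73 for Cish. WT 4 was the only array numbered 4, so the block took it out of the comparison, and these differences equalled those without WT 4. The number of genes with such a p was 1506 without WT 4, 698 with the NK marker covariate and 744 without Lck-/- 3. Among probes, 0 member probes were called in the 10 alternatives run on them. Groups of 4 and 3 arrays limit these comparisons.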

Other observations

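The cytokine receptor genes with an unadjusted limma p under 0.05 are named here after their values were seen, and none passed over all genes. Il10ra, which encodes the ligand-binding chain of the interleukin 10 receptor, differed by 1.06 (SE 0.29) and its partner chain gene Il10rb by 0.72 (SE 0.19). The interleukin 27 receptor gene Il27ra differed by 0.59 (SE 0.22) and the interferon gamma receptor gene Ifngr2 by 0.58 (SE 0.19). Both genes of the type I interferon receptor had such a p, Ifnar1 at 0.42 (SE 0.16) and Ifnar2 at 0.45 (SE 0.18). Il2rb, the beta chain shared by the interleukin 2 and interleukin 15 receptors, differed by 0.41 (SE 0.16). All 7, picked by that p, were higher on the arrays labelled Lck-/-. Over all genes tested, 5.05% were higher at that p. Of the genes at that p alone, 71.2% were higher, and 23.0% with each array's median as reference. Of the 4 receptor genes with negative differences, the interleukin 6 receptor gene Il6ra was at -0.67 (SE 0.29). Il2ra, the alpha chain of the interleukin 2 receptor, had a difference of -0.33 (SE 0.17).

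Other listed genes with such a p, named after their values were seen, included the survival gene Bcl2 at 0.72 (SE 0.14) and the cytokine gene Osm at 0.91 (SE 0.25), both well above background on all 7 arrays.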
